A study of Mus musculus with 9 samples.

Results

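The tibialis anterior muscle of mice that received a turmeric diet together with dexamethasone was compared with that of mice that received dexamethasone on the plain diet. Dexamethasone (DEX) is a synthetic glucocorticoid, and the turmeric extract (TE) was a water extract of the rhizome of Curcuma longa. The comparison comprised 3 arrays of the DEX + TE group and 3 arrays of the DEX group, 1 per mouse, out of 9 arrays in the series. A further 3 arrays came from the control group, which received saline. All mice were C57BL/6J males aged 15 weeks on an AIN93-based diet, and the arrays were run on mice of near-average body and muscle weight in their groups. DEX was injected intraperitoneally at 5 mg/kg body weight per day for 7 days in both groups compared, and the DEX + TE group ate the diet with 2% TE. By the protocol the diet began 5 days before the first injection, whereas the sample titles describe the extract as given after DEX. No group received TE without DEX, so every difference described here is a difference between muscles exposed to DEX. Of the 45037 probe sets of the array that are not manufacturer controls, 20907 had a mean log2 signal of at least log2 of 100 in the DEX or the DEX + TE group and were analysed. A probe set is a group of short DNA probes that together report the transcripts of a gene. The probe sets nearest to that limit had mean signals of 100.002 inside it and 99.99 outside it.

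Glucocorticoids bind the glucocorticoid receptor, a transcription factor, and in muscle they lower protein synthesis and raise protein breakdown. The muscle ubiquitin ligases Fbxo32 (atrogin-1) and Trim63 (MuRF1) mark muscle proteins for the proteasome, and their transcription is driven by FoxO factors and by the receptor itself. IGF1 signaling through Akt holds FoxO factors out of the nucleus and so opposes this program.

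The arrays were scaled by the authors to the same trimmed mean of 500, yet they differed in their dim signals. The median over all probe sets was 71.3 to 77.7 in the DEX arrays and 84.7 to 95.0 in the DEX + TE arrays. When the probe sets analysed were split into 5 equal groups by signal, the median log2 fold change of DEX + TE against DEX was 0.26 in the dimmest and −0.02 in the brightest group. Quantile normalization, which gives every array the same distribution, brought the 5 medians to between −0.02 and −0.00203. For actin, whose 3′ and 5′ probe sets report how intact the RNA was, their log2 ratio stood at 0.30 ± 0.17 (SD, n = 3) in the DEX and 0.46 ± 0.08 in the DEX + TE arrays, whereas that of Gapdh stood at −0.33 ± 0.04 in the DEX and −0.33 ± 0.02 in the DEX + TE arrays. The part of these array differences in the gene results was not tested. The defining markers of skeletal muscle fibers, such as Acta1 and Ckm, were strongly expressed, and the 10 of them summed to 392667 to 492718 in the DEX arrays and 473885 to 511703 in the DEX + TE arrays.

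No probe set passed the test with TE supplementation. Limma, fitted to all 9 arrays with Benjamini-Hochberg adjustment over the 20907 probe sets, called 0.0% of them at an adjusted p below 0.05 with a log2 fold change of 0.6 or more in size, and the smallest adjusted p was 0.199. By the group means alone 56.1% were higher and 43.9% lower in the DEX + TE group, and 6.03% were higher and 1.18% lower by 0.6 or more. At a nominal p below 0.05, which is the limma p before adjustment, 1332 probe sets (6.37%) were higher and 432 (2.07%) lower, 8.44% in all. Quantile normalization moved that split to 802 higher and 751 lower, and centring the arrays on their medians moved it to 1044 and 776. The 3 DEX + TE mice lay entirely above the 3 DEX mice in 2003 probe sets (9.58%) and entirely below them in 1175 (5.62%), together 15.2%. With 1 probe set per gene, 54.7% of 10813 genes were higher and 45.3% lower by the mean, 8.33% differed at a nominal p below 0.05 and 15.3% did not overlap. At a nominal p below 0.05, 6.24% of these genes were higher and 2.09% lower. Without overlap, 9.28% were higher and 6.06% lower. A probe set that reached the signal limit in only 1 of the groups was higher in that group by necessity. Rank Product, the test named in the study's methods, called 50 higher and 28 lower, of which 17 had signals under 50 on every array of 1 of the groups. When limma's variance was allowed to follow the signal level, 3 probe sets passed (0.0143%), for Slc25a25, Mtch2 and Trim63. With 3 arrays in each group, exact permutation (two-sided) cannot give a p below 0.1, so no single gene could pass such a test. Higher and lower below are therefore statements of value, not calls, and a value that a gene or probe set is said to give, or to stand at, is its log2 fold change of DEX + TE against DEX unless signals are named.

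**Figure D1:**
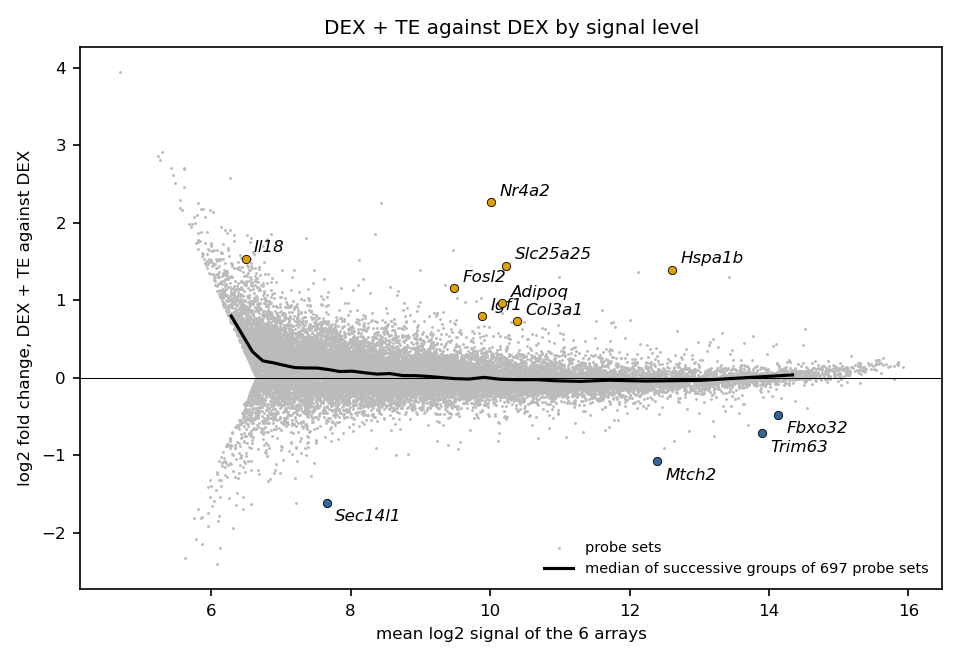
Log2 fold change of DEX + TE against DEX (vertical axis) against the mean log2 signal of the 6 arrays (horizontal axis) for the 20907 probe sets, with a black line for the median of successive groups of probe sets. Dim probe sets lie above 0 on balance, and the V shape at the left edge follows from the limit on the signal; Nr4a2 (2.26), Slc25a25 (1.45) and Hspa1b (1.40) stand above the bulk at bright signals, and Mtch2 (−1.07) and Trim63 (−0.71) below it.

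Slc25a25, which encodes a calcium-regulated carrier of ATP-Mg and phosphate in the inner mitochondrial membrane, was among the most clearly separated genes. Its signals were 748, 876 and 588 in the 3 DEX mice and 1969.7, 2269.7 and 1754 in the 3 DEX + TE mice, against 1864, 1454 and 1583 in the control mice. Every DEX + TE mouse lay above every DEX mouse and within or above the range of the control mice. The log2 fold change was 1.45 with an SE of 0.17 (limma adjusted p = 0.199). With the variance following the signal level the adjusted p was 0.00852, in a range of 0.00852 to 0.290 over 19 other settings. A dimmer probe set of the gene had a log2 fold change of 1.27.

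The RefSeq table of GRCm38.p6 lists 3 transcription starts for Slc25a25. The 250 bases before the start nearest the 3′ end of the gene (chr2:32424067-32424316, minus strand) are shown because they hold TGACGTCA, the cAMP response element, in capitals, 150 bases before the start. The windows of the other starts do not hold it, and 1.79% of the 32851 promoters in the table do (300 bases each, both strands).
Slc25a25: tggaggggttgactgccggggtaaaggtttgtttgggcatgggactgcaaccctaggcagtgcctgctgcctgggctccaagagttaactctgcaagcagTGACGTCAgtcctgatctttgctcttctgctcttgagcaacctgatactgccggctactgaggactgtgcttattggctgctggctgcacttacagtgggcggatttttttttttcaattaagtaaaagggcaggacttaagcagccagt

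Mtch2, a protein of the outer mitochondrial membrane, was clearly separated by only 1 of its 3 probe sets above the signal limit. The signals of that probe set were 8933, 7174 and 7420.4 in the DEX mice and 3692, 3537 and 3931 in the DEX + TE mice, a log2 fold change of −1.07 (SE 0.14, limma adjusted p = 0.199). The groups did not overlap in this probe set, but the other probe sets above the limit had log2 fold changes of −0.10 and 0.01.

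Trim63 and Fbxo32, the best known ubiquitin ligases of muscle atrophy, were lower in value in the DEX + TE than in the DEX mice. Trim63 had signals of 20654, 19049.5 and 19083 in the DEX mice and 11745, 10571 and 13731 in the DEX + TE mice, and 14359, 15438 and 14224 in the control mice. All DEX + TE mice lay below all DEX mice and also below all control mice. Its log2 fold change was −0.71 (SE 0.11, limma adjusted p = 0.199), and with the variance following the signal level the adjusted p was 0.0214, in a range of 0.0214 to 0.411 over 19 other settings.

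Fbxo32 was measured by 3 probe sets, all lower in the DEX + TE mice without overlap. The brightest gave 19778, 20847 and 22668 in the DEX mice and 14791, 13998 and 16879.9 in the DEX + TE mice. The control mice, at 18003, 12063 and 10690.2, spread more widely than either group. The log2 fold change was −0.47 (SE 0.19, limma adjusted p = 0.561). The other probe sets gave −0.75 (limma adjusted p = 0.288) and −0.91 (limma adjusted p = 0.403).

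The 250 bases before the start of Trim63 (chr4:134314870-134315119, plus strand, GRCm38.p6, RefSeq) are shown because they hold letters that match the motifs of both kinds of factor known to drive this gene, which describes the sequence and not binding. TGTTCT, the reverse complement of the receptor's core hexamer AGAACA, begins 200 bases before the start, and the FoxO motif TGTTTAC follows directly at 194, with both in capitals. The hexamer occurs in 19.0% and TGTTTAC in 3.65% of the 32851 promoters (300 bases, both strands).
Trim63: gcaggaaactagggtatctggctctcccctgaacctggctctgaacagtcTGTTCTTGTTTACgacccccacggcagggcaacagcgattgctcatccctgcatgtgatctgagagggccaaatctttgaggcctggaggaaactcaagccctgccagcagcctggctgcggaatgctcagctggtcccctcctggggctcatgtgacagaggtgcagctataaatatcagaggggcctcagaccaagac

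Of 18 ubiquitin ligases linked to muscle wasting, 15 were measured, with 1 probe set per gene, and 11 were lower and 4 higher in the DEX + TE group. At a nominal p below 0.05, 4 were lower and 0 higher, whereas over all 10813 genes 2.09% were lower and 6.24% higher. The median log2 fold change was −0.14, against 0.02 over all genes. Besides Trim63 and Fbxo32 these were Fbxo31, a subunit of ubiquitin ligases that also acts in the cell cycle, at −0.28, and Mul1, a ligase of the mitochondrial outer membrane, at −0.32. The second probe sets of Fbxo31 and Mul1 gave −0.25 and −0.06. Nedd4, a ligase with roles outside atrophy as well, was the highest of the list at 0.43, with signals of 3685 to 11363 in the DEX and 10043 to 10955 in the DEX + TE mice, and its other probe sets gave −0.01 and 0.06. The count of 4 was 1 without DEX replicate 1 and 2 without DEX + TE replicate 1, DEX + TE replicate 2 or DEX replicate 3, and the median was −0.23 without DEX replicate 2.

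Differences among proteasome subunits and among FoxO and autophagy genes were small, and most were in the direction of lower values. Of 32 proteasome subunits, 26 were lower, 9 of them without overlap (6.06% of all genes were lower without overlap), with a median of −0.09. At a nominal p below 0.05, 2 were lower (2.09% of all genes). Psmb2, a subunit of the catalytic core, stood at 2908 ± 54.5 (SD, n = 3) in the DEX and 2525 ± 144 in the DEX + TE group, and Psmd2, a subunit of the regulatory cap, at 5955 ± 256 in the DEX and 5113 ± 222 in the DEX + TE group. The count of 2 was 0 after quantile normalization, 4 with the variance following the signal level, and 0 without DEX + TE replicate 1, DEX + TE replicate 3, DEX replicate 2 or DEX replicate 3 and 1 without Control replicate 3 or DEX replicate 1, and the median was −0.06 without DEX + TE replicate 1 and −0.06 without DEX replicate 1. Of 22 FoxO and autophagy genes, 19 were lower, with a median of −0.09 (−0.06 without DEX replicate 1). At a nominal p below 0.05, 1 was lower (2.09% of all genes). The count of 1 was 2 without DEX replicate 2, and 2 with the variance following the signal level. That gene was Foxo4, at 2129, 2148 and 2049.8 in the DEX mice and 1685, 1807 and 1806 in the DEX + TE mice. The best known atrophy factors Foxo1 and Foxo3 had overlapping groups and log2 fold changes of −0.10 and 0.03 by their brightest probe sets. The sign of the latter turned when the arrays were centred on their medians (−0.0133). A second Foxo3 probe set above the limit was at 798, 602 and 548 in the DEX mice. In the DEX + TE mice it was at 528, 528 and 535, without overlap. Its log2 fold change was −0.27 (limma adjusted p = 0.686). The other Foxo1 probe sets above the limit gave −0.09 and −0.16.

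The glucocorticoid receptor's target genes were split in direction. Among 25 measured, 16 were lower and 9 higher in the DEX + TE group. At a nominal p below 0.05, 5 were lower (2.09% of all genes) and 1 was higher (6.24% of all genes), and the median was −0.26. The lower count was 2 without DEX replicate 1 and 3 without DEX + TE replicate 1 or DEX + TE replicate 2. The higher count was 0 without DEX + TE replicate 1 or DEX + TE replicate 2 and 4 without DEX replicate 1. The median without DEX replicate 1 was −0.07. Pdk4, the kinase that shuts off pyruvate dehydrogenase and spares glucose, was at 16039.5, 14669 and 18558 in the DEX mice and 11044, 9181 and 12154 in the DEX + TE mice, and the groups did not overlap. Its log2 fold change was −0.61 (SE 0.18, limma adjusted p = 0.445). Angptl4, a secreted inhibitor of lipoprotein lipase, was at 188, 241 and 419.6 in the DEX and 149, 98.4 and 95 in the DEX + TE mice, a log2 fold change of −1.26 (limma adjusted p = 0.445). Klf15, a transcription factor that promotes amino acid breakdown, was at 1462, 778 and 1029 in the DEX and 676, 576 and 749 in the DEX + TE mice. The control mice, at 1542, 1002 and 987, were not below the DEX mice in Klf15. Its DEX and DEX + TE groups were separated by a small gap, with a log2 fold change of −0.67 (limma adjusted p = 0.551). Zbtb16, another transcription factor of this group, gave −0.51 by its brightest probe set and −0.13 by each of its others. Cebpb, which acts with the receptor at many genes, gave −0.26. The gene that was higher was the clock gene Per1, at 486 ± 113 (SD, n = 3) in the DEX and 708 ± 101 in the DEX + TE group, against 1254 ± 256 in the control group.

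Other targets overlapped between the groups. Fkbp5, a co-chaperone of the receptor and a standard readout of its activity, was at 7827, 5090.4 and 4255 in the DEX, 4479, 3897 and 4326 in the DEX + TE and 1303, 950.4 and 1235 in the control mice. Its groups overlapped, with a log2 fold change of −0.39 (limma adjusted p = 0.686). Ddit4 (Redd1), an inhibitor of mTORC1, was at 389.6, 258 and 312 in the DEX and 372, 277 and 189 in the DEX + TE mice, and far above both, at 5136, 4308 and 4470.0, in the control mice. Among the 6 measured genes that the study also assayed by RT-PCR, 5 were lower and 1 higher, with a median of −0.35. They were Trim63, Fbxo32, Klf15, Foxo1, Foxo3 and Ddit4. At a nominal p below 0.05, 3 were lower (2.09% of all genes). That count was 1 without DEX + TE replicate 1, DEX + TE replicate 2, DEX replicate 1 or DEX replicate 3.

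The IGF1-related genes listed by the study were mostly higher in value with TE. The study chose this list on the same samples, so its direction is no independent evidence. Of 8 measured, 6 were higher and 2 lower, with a median of 0.76. At a nominal p below 0.05, 5 were higher (6.24% of all genes) and 1 lower (2.09% of all genes). The count of 5 was 3 without DEX replicate 1, and the lower count of 1 was 0 without DEX + TE replicate 1, DEX + TE replicate 2, DEX replicate 2 or DEX replicate 3. Igf1, the growth factor itself, was at 737, 762 and 659 in the DEX and 1461, 1491 and 885 in the DEX + TE mice, and at 1026, 1292 and 1198 in the control mice. All DEX + TE mice exceeded all DEX mice, and 1 of the 3 lay below the control range. The log2 fold change was 0.79 (SE 0.20, limma adjusted p = 0.373), and the other probe sets gave 1.04, 0.75 and 0.37. Tgfbi, a matrix protein induced by TGF-beta, was higher by all 4 of its probe sets, from 0.69 to 0.86. Slc20a1, a phosphate transporter, was at 416, 1594 and 1582 in the DEX and 389.6, 553 and 734 in the DEX + TE mice, so the groups overlapped, with a log2 fold change of −0.91. Scd1, the desaturase that makes oleic acid, overlapped as well by its brighter probe set. That was at 1340.0, 2811 and 3189 in the DEX and 4049, 2878 and 6451 in the DEX + TE mice. Its dimmer probe set gave 0.74 (limma adjusted p = 0.659). There a narrow gap lay between the highest DEX mouse, at 264, and the lowest DEX + TE mouse, at 268.

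Among the 28 genes of IGF and insulin signaling, 12 were higher and 16 lower, with a median of −0.04. Besides Igf1, those higher at a nominal p below 0.05 (6.24% of all genes) were Grb14, Igfbp6 and Tsc1. Grb14, an adaptor that inhibits the insulin receptor, gave 0.45. Igfbp6, a binding protein that prefers IGF2, gave 0.50, and Tsc1, a brake on mTORC1, gave 0.28. The second probe set of Tsc1 gave −0.21. At a nominal p below 0.05, 0 of the list were lower, but 3 were with the arrays centred on their medians, 4 with the variance following the signal level, and 1 without DEX + TE replicate 1, DEX + TE replicate 2, DEX replicate 1 or DEX replicate 3 and 2 without Control replicate 1 or Control replicate 2. The count of 4 was 2 without DEX + TE replicate 2, DEX + TE replicate 3, DEX replicate 1 or DEX replicate 2, and the median ran from −0.09 (without DEX replicate 3) to 0.03 (without DEX replicate 1).

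**Figure D2:**
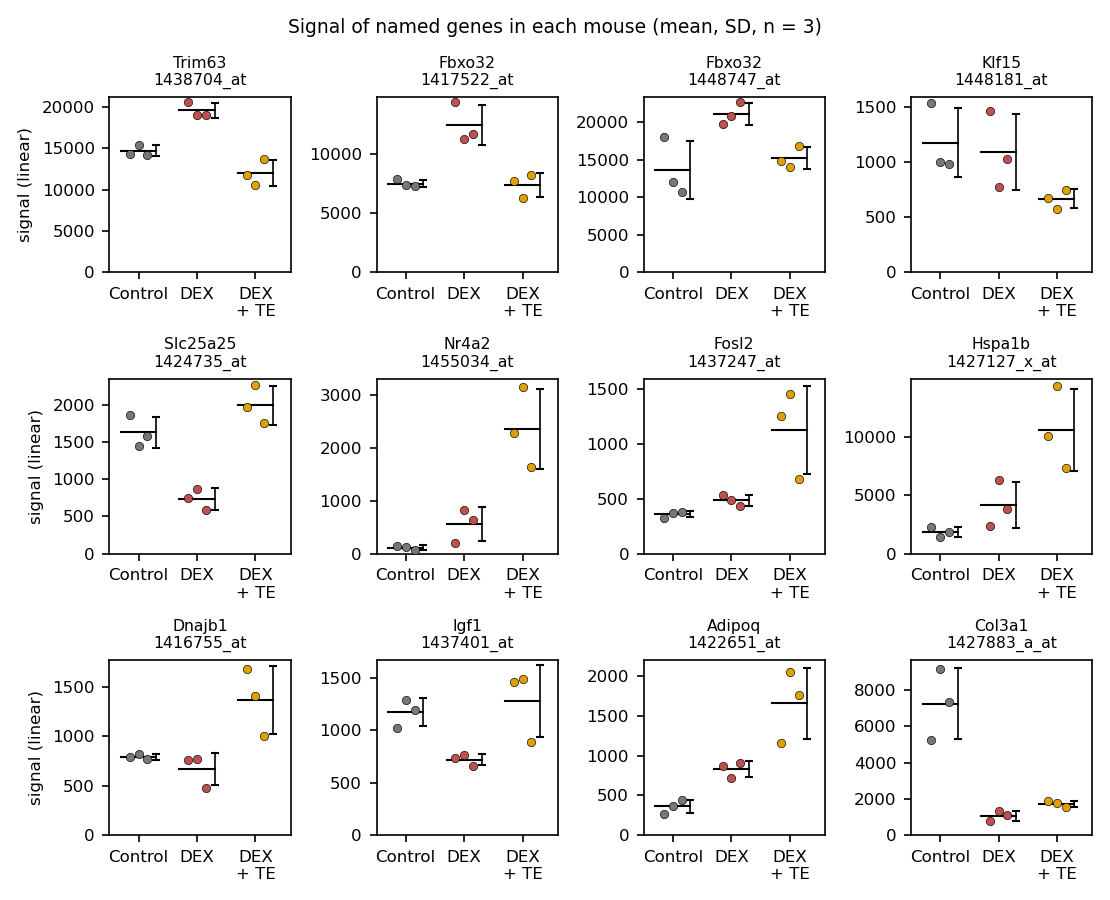
Linear signal (vertical axes) of 11 genes by 12 probe sets in each of the 9 mice, by group, with the mean as a line and the SD as a bar (n = 3). Trim63, both Fbxo32 probe sets and Klf15 lie lower in all DEX + TE than in all DEX mice; the other genes lie higher, and Col3a1 stays far below the control mice.

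Immediate early genes, whose transcription follows stimuli without new protein synthesis, were mostly higher in value in the DEX + TE mice. Of 24 measured, 22 were higher and 2 lower, and the median was 0.42. At a nominal p below 0.05, 4 were higher (6.24% of all genes) and 0 lower, and 5 were higher without overlap (9.28% of all genes). Nr4a2, an orphan nuclear receptor, was at 203, 831 and 628 in the DEX mice and 2278, 3151 and 1634 in the DEX + TE mice, and at 151, 127 and 60.9 in the control mice. The order was the same in every mouse, control below DEX below DEX + TE. The log2 fold change was 2.26 (SE 0.56, limma adjusted p = 0.354). It was 1.65 without DEX replicate 1, the lowest of that group, and the 3 other probe sets above the signal limit gave 1.66, 1.27 and 1.40. Fosl2, an AP-1 subunit, was at 532, 484 and 431 in the DEX and 1253, 1448 and 674 in the DEX + TE mice (log2 fold change 1.15, limma adjusted p = 0.321), whereas its dimmer probe set gave −0.19. Klf4, a zinc finger transcription factor, was at 3849, 3908 and 2144 in the DEX and 5309.6, 4795 and 5947 in the DEX + TE mice (log2 fold change 0.74). Btg2, an antiproliferative protein, was at 685, 631 and 533 in the DEX and 838, 1274 and 739.7 in the DEX + TE mice (log2 fold change 0.59). Fos itself overlapped between the groups, with a log2 fold change of 0.51. The count of 4 was 7 without DEX + TE replicate 1, and 7 with the variance following the signal level. The median was 0.24 without DEX replicate 3.

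Some inducible heat shock proteins were higher in value, with little shift of the whole list. Among 24 chaperone genes, 16 were higher and 8 lower with a median of 0.08. At a nominal p below 0.05, 4 were higher (6.24% of all genes). Hspa1b, the inducible Hsp70, was at 2376, 6301 and 3839.8 in the DEX and 10075, 14307 and 7295 in the DEX + TE mice, and at 2281, 1423 and 1817 in the control mice. Its lowest DEX + TE mouse lay above its highest DEX mouse, with a log2 fold change of 1.40 (SE 0.38, limma adjusted p = 0.398). The other probe sets gave 1.37 and 1.30, the latter with overlap between the groups. Dnajb1, the Hsp40 that stimulates Hsp70, was at 762, 769.9 and 479.8 in the DEX and 1688, 1405 and 1004 in the DEX + TE mice (log2 fold change 1.03, limma adjusted p = 0.321). Dnaja1, a related co-chaperone, was at 2689, 3303 and 2524 in the DEX and 4432, 5326 and 3703 in the DEX + TE mice (log2 fold change 0.65), and its other probe sets gave 0.68 and 0.48. Hsp90aa1, the inducible Hsp90, gave 0.61 by its brightest probe set and 0.31 and 0.32 by the others. Hspa1a, the neighbouring copy of Hspa1b, overlapped between the groups at 1557, 3380.4 and 3812 in the DEX and 5698, 6052 and 2610.3 in the DEX + TE mice. The transcripts of these copies are nearly identical, so their probe sets may share signal. The count of 4 was 2 without DEX + TE replicate 2, and the median was 0.04 without DEX + TE replicate 2 and 0.00 without DEX replicate 1.

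The 250 bases before the starts of Hspa1b (chr17:34959239-34959488) and Hspa1a (chr17:34972157-34972406), both on the minus strand in GRCm38.p6 by RefSeq, are shown because they are the promoters through which heat shock factor acts, and they were identical at 247 positions. The capitals mark GAANNTTC, an inverted pair of heat shock element units, 104 bases before each start. It occurs in 7.86% of the 32851 promoters (300 bases, both strands) and in 6.98% of the 43 promoters of named genes. The windows of Dnajb1 did not hold it, and a window of Dnaja1 did. This motif and the cAMP response element were chosen after the values were seen.
Hspa1b: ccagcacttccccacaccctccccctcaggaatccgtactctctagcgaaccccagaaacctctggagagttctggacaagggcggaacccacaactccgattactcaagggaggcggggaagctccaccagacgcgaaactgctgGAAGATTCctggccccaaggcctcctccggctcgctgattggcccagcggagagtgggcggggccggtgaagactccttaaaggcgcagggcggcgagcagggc
Hspa1a: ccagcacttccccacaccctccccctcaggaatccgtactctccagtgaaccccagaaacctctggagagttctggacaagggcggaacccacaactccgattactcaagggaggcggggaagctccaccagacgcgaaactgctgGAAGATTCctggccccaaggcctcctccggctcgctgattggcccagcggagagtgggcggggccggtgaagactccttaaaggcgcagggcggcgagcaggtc

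Collagen genes were mostly higher in value in the DEX + TE than in the DEX mice. Of 18 collagen chains, 16 were higher and 2 lower, 9 at a nominal p below 0.05 (6.24% of all genes) and 0 lower, with a median of 0.45. The same genes had a median of −0.37 in the DEX + TE group and −0.79 in the DEX group relative to the control group, which are comparisons that share arrays. Col1a2, a chain of type I collagen, was at 1672, 2670.1 and 2692 in the DEX, 4107, 3625 and 3679 in the DEX + TE and 8582, 13498 and 11826 in the control mice. All DEX + TE mice lay above all DEX mice and far below all control mice, with a log2 fold change of 0.73 (SE 0.23, limma adjusted p = 0.454). Col3a1, of type III collagen, gave 0.73 by its bright probe set and 0.07 by its dim probe set. Col6a2, of the collagen VI around muscle fibers, was at 677, 827 and 876 in the DEX and 1134, 1122 and 1195 in the DEX + TE mice (log2 fold change 0.54, limma adjusted p = 0.368), and Col14a1, a fibril-associated collagen, at 93.8, 128 and 177 in the DEX and 234, 214 and 251 in the DEX + TE mice (log2 fold change 0.86, limma adjusted p = 0.382). The count of 9 was 5 without DEX + TE replicate 1 or DEX replicate 1.

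Matrix genes outside the collagens and markers of fibroblasts differed likewise. Of 31 matrix genes 28 were higher, 11 at a nominal p below 0.05 (6.24% of all genes), with a median of 0.36. The count of 11 was 2 without DEX replicate 1, 5 without DEX + TE replicate 2 or DEX + TE replicate 3 and 6 without DEX replicate 2, and the median was 0.23 without DEX replicate 1. Ogn, the small leucine-rich proteoglycan osteoglycin, gave 0.56 by its brightest probe set. Its other probe set was the tighter, at 1070.3, 958 and 1005 in the DEX and 1476, 1454 and 1530.1 in the DEX + TE mice (log2 fold change 0.56, SE 0.08, limma adjusted p = 0.199). Fmod, the collagen-binding proteoglycan fibromodulin, was higher by all 6 of its probe sets, from 0.26 to 0.99. Of 13 fibroblast markers 13 were higher, with a median of 0.58. At a nominal p below 0.05, 9 were higher (6.24% of all genes), and 10 were higher without overlap (9.28% of all genes). They included Dpt, the matrix protein dermatopontin, at 800.2, 1013 and 1168 in the DEX and 1642, 1538 and 1680.4 in the DEX + TE mice (log2 fold change 0.72, limma adjusted p = 0.403). Clec3b, the secreted protein tetranectin, was at 378, 545 and 452 in the DEX and 811, 849 and 768 in the DEX + TE mice (log2 fold change 0.84, limma adjusted p = 0.403). Gsn, which severs actin filaments, and Serpinf1, a secreted serpin that acts against vessel growth, each gave 0.63. The count of 9 was 5 without DEX replicate 1. The summed signal of the 13 markers was 33072 to 43395 in the DEX arrays and 54376 to 61441 in the DEX + TE arrays. The ratio was 1.45, and the control arrays gave 42563 to 60795. Gsn and Dcn made up most of this sum, so the ratio mainly reflects them. Their means were 19135 and 14801 in the DEX and 29083 and 19778 in the DEX + TE group. In whole muscle, more fibroblasts and more RNA per fibroblast cannot be told apart. Of 7 tendon markers 6 were higher, 4 at a nominal p below 0.05 (6.24% of all genes). The count of 4 was 1 without DEX replicate 1 and 2 without DEX + TE replicate 2 or DEX + TE replicate 3. The higher tendon markers included Tnmd, a tendon membrane protein, at 0.81, and Kera, the proteoglycan keratocan, at 1.02.

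Macrophage markers were dim. Of 12 macrophage markers on the array, 8 reached the signal limit. All 8 were higher by value, 5 at a nominal p below 0.05 (6.24% of all genes), with a median of 0.64. C1qa, C1qb, Cd14 and Fcgr3 reached the limit only in the DEX + TE group, so the limit itself fixed their direction. The count of 5 was 3 after quantile normalization, and 1 without DEX replicate 1 or DEX replicate 2, 2 without DEX + TE replicate 2 and 3 without DEX + TE replicate 1 or DEX + TE replicate 3. Csf1r, the receptor of the macrophage growth factor, was at 434, 488 and 588 in the DEX and 787, 857 and 775 in the DEX + TE mice (log2 fold change 0.69, limma adjusted p = 0.475). Mrc1, the mannose receptor, was at 188, 143 and 124 in the DEX and 313, 279.7 and 220.4 in the DEX + TE mice (log2 fold change 0.85). Lyz2, which neutrophils express too, had a log2 fold change of 0.02. Whether these markers bear on the other gene groups was not tested. The sum over all 12 macrophage markers on the array, those below the limit included, was 1724 to 2414 in the DEX arrays. It was 2581 to 2959 in the DEX + TE and 1839 to 2996 in the control arrays. The 4 measured genes of class II antigen presentation were higher (median 0.96, and 0.14 without DEX replicate 1). However, H2-Eb1 and H2-Ab1 reached the limit only in the DEX + TE group, which fixed their direction. H2-Aa was the sole member at a nominal p below 0.05 (2 without DEX replicate 3). It was at 94.9, 203 and 198 in the DEX, 343, 421 and 294 in the DEX + TE and 733, 1523 and 1338 in the control mice, while its other probe set gave 0.02. No blood marker reached the signal limit.

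Adipokines were higher in value as well. Adipoq, which encodes adiponectin, was at 867, 721 and 905 in the DEX and 1165, 2049.7 and 1761 in the DEX + TE mice, and at 268, 371 and 441 in the control mice, in rising order without overlap (log2 fold change 0.96, SE 0.25, limma adjusted p = 0.373). Lep, which encodes leptin, was near background at 68.6, 67.7 and 90.1 in the DEX and 140.2, 115 and 191 in the DEX + TE mice (log2 fold change 0.96), and Retn, which encodes resistin, was at 384, 278 and 356 in the DEX and 401, 440.2 and 608 in the DEX + TE mice (log2 fold change 0.50). Of 10 adipocyte markers 9 were higher, 3 at a nominal p below 0.05 (6.24% of all genes), with a median of 0.39. Among them Lep and Cidec reached the signal limit only in the DEX + TE group, which fixed their direction. The count of 3 was 5 without Control replicate 3. The median was 0.26 without DEX + TE replicate 3 and 0.25 after quantile normalization. The lower one was Plin4, a lipid droplet coat protein that muscle fibers also express, at −0.34. The brightest markers, Fabp4 and Car3, which muscle and its vessels express as well, gave 0.20 and 0.23.

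**Figure D3:**
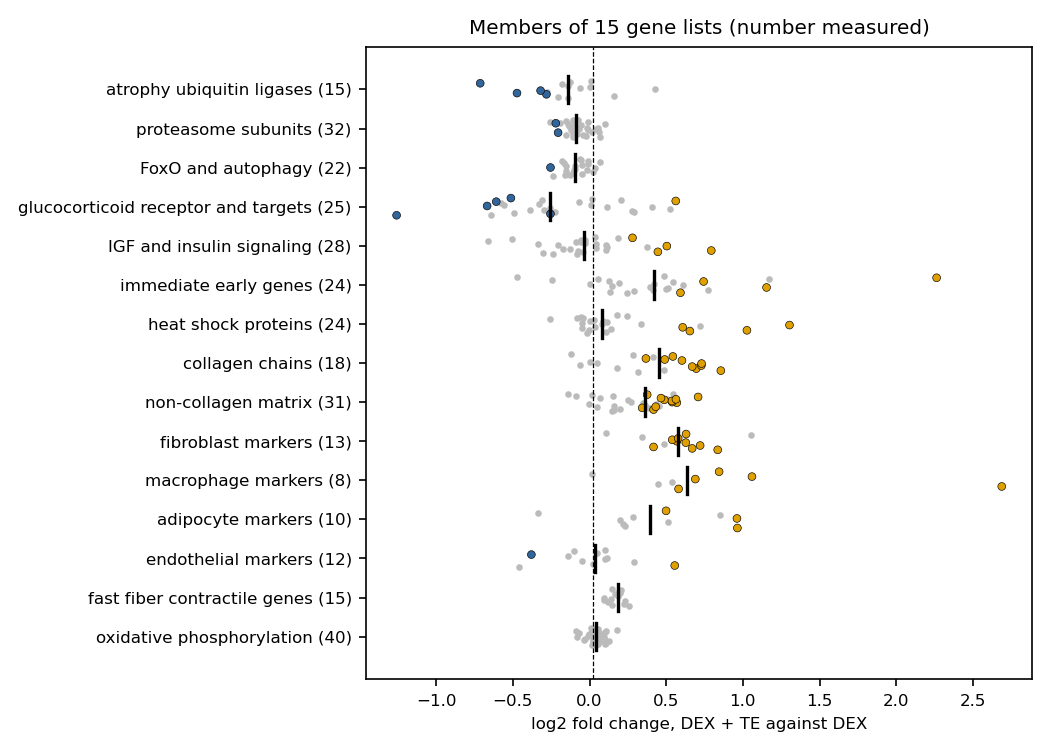
Points are log2 fold changes of DEX + TE against DEX (horizontal axis) for the members of 15 gene lists, with the number measured in brackets. Filled points with an outline had a nominal p below 0.05, black bars are list medians and the dashed line is the median of all genes (0.02); the medians run from −0.26 for glucocorticoid targets to 0.64 for macrophage markers.

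Contractile and respiratory genes differed little. Each of the 15 fast fiber genes had a higher mean, with a median of 0.18, 0 of them at a nominal p below 0.05, and the median was 0.03 after quantile normalization and 0.08 without DEX replicate 1. Acta1, skeletal muscle actin, was at 41051, 52005 and 47962 in the DEX and 52236, 56114 and 59647 in the DEX + TE mice, with a narrow gap between the groups. Of 40 genes of oxidative phosphorylation 33 were higher, with a median of 0.04 that was −0.03 after quantile normalization and −0.01 with the arrays centred on their medians, and 0 at a nominal p below 0.05. Of 23 antioxidant genes 18 were lower, with a median of −0.07 (−0.03 without DEX + TE replicate 1, −0.10 without DEX + TE replicate 2 and −0.02 without DEX replicate 1), and the secreted superoxide dismutase Sod3, at 0.73, was the sole member at a nominal p below 0.05 (0 without DEX + TE replicate 3 or DEX replicate 1).

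**Figure D4:**
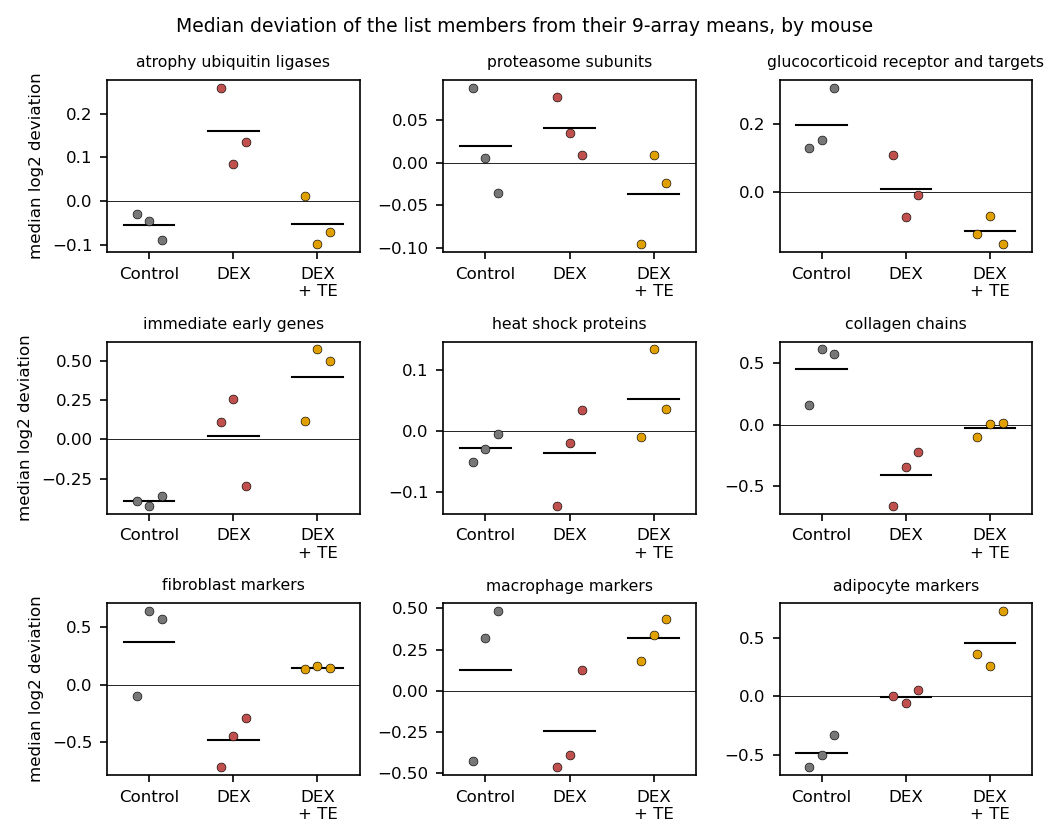
Median over the members of 9 gene lists of the log2 deviation from each member's mean over the 9 arrays (vertical axes), by mouse and group, with a line at the group mean. For the atrophy ligases all DEX + TE mice lie below all DEX mice. For collagen chains, fibroblast, macrophage and adipocyte markers they lie above them. For the glucocorticoid target, proteasome, immediate early and heat shock lists the groups overlap. The macrophage markers C1qa, C1qb, Cd14 and Fcgr3 and the adipocyte markers Lep and Cidec reached the signal limit only in the DEX + TE group. The limit thus fixed part of the separation of these lists.

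By mouse, the median of the atrophy ligases, as log2 deviation from the 9-array mean, was 0.26, 0.09 and 0.14 in the DEX and 0.01, −0.10 and −0.07 in the DEX + TE mice. The fibroblast markers gave −0.72, −0.44 and −0.29 in the DEX and 0.13, 0.16 and 0.14 in the DEX + TE mice. DEX replicate 1 was the most extreme DEX mouse in both lists. The immediate early genes gave 0.11, 0.25 and −0.30 in the DEX and 0.11, 0.57 and 0.50 in the DEX + TE mice, and there DEX replicate 3 was the lowest.

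Other genes with large positive fold changes were dim. Groups without overlap were a condition of their choice and not a result. Il18, an inflammasome-activated cytokine, was at 50.7, 60.4 and 48.4 in the DEX and 164, 142 and 156 in the DEX + TE mice, and at 119.8, 191 and 164 in the control mice. Its DEX + TE and DEX mice did not overlap, with a log2 fold change of 1.54 (SE 0.18, limma adjusted p = 0.199). Ccdc80, a secreted matrix protein, gave 1.86 and, by its brighter probe set, 0.64. Ptger3, a receptor of prostaglandin E2, was at 51.6, 47.5 and 42.9 in the DEX and 99.8, 131 and 171 in the DEX + TE mice (log2 fold change 1.47). Rbp4, the carrier of retinol in plasma that fat tissue also secretes, was at 61.8, 82.3 and 69.8 in the DEX and 197, 147 and 198 in the DEX + TE mice (log2 fold change 1.34). P3h2, a prolyl hydroxylase of collagen, and Ift140, a protein of transport in cilia, gave 1.81 and 1.84. Il18, Ptger3, Rbp4, P3h2, Ift140 and the dimmer probe set of Ccdc80 reached the signal limit only in the DEX + TE group. The limit itself thus fixed their direction.

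Probe sets of the same gene often differed in this range. Hadh, a dehydrogenase of fatty acid oxidation, gave 1.86 by its dimmest probe set but 0.05 and −0.09 by brighter probe sets, and Adal, an adenosine deaminase-like enzyme, 2.58 but −0.10 and 0.03. Sde2, a protein of DNA replication and splicing, gave 1.42 and, by its other probe sets above the limit, 0.08, 0.19 and −0.16. The probe sets that gave 2.58 for Adal and 1.42 for Sde2 reached the limit only in the DEX + TE group, which fixed their direction. Over 902 probe sets at a nominal p below 0.05 whose genes had further probe sets above the limit, 68.2% of the 1686 pairs had the same direction.

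The largest negative fold changes included that of Depp1, a FoxO-responsive gene that links to autophagy, at 802, 528 and 601 in the DEX and 291, 249.9 and 455 in the DEX + TE mice. The control mice lay above both groups, at 1037, 868 and 1241. The DEX and DEX + TE groups did not overlap in Depp1, with a log2 fold change of −0.98 (limma adjusted p = 0.379), and its second probe set gave −0.86. Sec14l1, a lipid-binding protein, was at 352, 344 and 361 in the DEX and 64.1, 183 and 132 in the DEX + TE mice (log2 fold change −1.61), while its brighter probe set gave −0.01. By its 1 probe set above the signal limit, Vars2, the mitochondrial valyl-tRNA synthetase, was under 50 in every DEX + TE mouse and at least 3.12-fold lower than in the DEX group, against a floor of 50. Its other probe set, below the limit, gave 0.44. 5730405A17Rik was likewise under 50 in every DEX + TE mouse and at least 2.16-fold lower, and Dop1b, a protein of endosome traffic, at least 2.02-fold, whereas its brighter probe set gave −0.12. The values of Inip, a subunit of a complex that binds DNA breaks, and Agtrap, which binds the angiotensin receptor, were −1.69 and −1.74, while their probe sets below the limit gave −0.51 and −0.01 for Inip and 0.65 for Agtrap. The remaining genes with large negative values, Ttf1, Meak7, Spata5, Masp1, Dus2 and Ppp1r12b, lay between −1.93 and −0.96 by the probe set that named them. For most of these genes other probe sets did not show such a difference. Those above the limit gave 0.29 for Ttf1, 0.21 and 0.03 for Spata5, 0.43 and 0.01 for Masp1, and 0.08, 0.36 and −0.18 for Ppp1r12b, and the one of Dus2, below the limit, gave 0.39. By the probe sets that named them, Ttf1, Meak7, Spata5, Masp1 and Ppp1r12b reached the signal limit only in the DEX group. The same held for Vars2, 5730405A17Rik, Dop1b, Inip and Agtrap, so the limit fixed the direction of them all. Groups without overlap were a condition of the choice here too. The genes with large positive values not yet described, Zfp296, Ak5 and Pqlc3, lay between 1.34 and 1.54. Zfp296, Ak5 and Pqlc3 reached the limit only in the DEX + TE group, which fixed their direction.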

How the data were processed

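Tibialis anterior RNA (250 ng per mouse) was hybridized to Affymetrix arrays of 45101 probe sets, 1 array per mouse, in 3 groups of 3 taken from the sample labels. The authors deposited 1 linear intensity per probe set and array, scaled to a mean of 500 after trimming 2% at each end. Robust Multi-array Average, named in the study's methods, would give log2 values and not such intensities. Which program produced the deposited summary is therefore unknown here. The 64 manufacturer controls were removed. Gene symbols came from the array annotation, and of the 20907 probe sets analysed 18761 had 1 symbol.

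The test used log2 intensities without offset. A model of 3 group means for the 9 arrays was fitted in limma 3.58.1 (R 4.3.3; lmFit, eBayes), with Benjamini-Hochberg adjustment over the 20907 probe sets. Calls required an adjusted p below 0.05 together with a log2 fold change of 0.6 or more in size. The fit and Rank Product (100 permutations, Python 3.11.15) were tested on simulated data. Each gene of the 43 gene lists was represented by its brightest probe set with 1 symbol, from 10813 such genes. The members and lists were chosen with earlier results of these data known, and some genes belong to more than 1 list. Named genes are those of the study's IGF1 list and RT-PCR panel, every call (those made with the variance following the signal included), the 15 largest differences in each direction (signals under 50 set to 50, nominal p below 0.05, groups not overlapping, 1 symbol) and up to 4 members per list described. Genes given by value beyond this rule, such as Fkbp5, Fos, Nedd4, Lyz2, Plin4, Hspa1a, Fmod and Acta1, were chosen after their values were seen. Promoters came from the RefSeq table of GRCm38.p6 (250 bases before to 50 after each start). Alternatives were other scalings, filters, offsets, variance models, the replicate number as a block and leaving out each array. Precision is limited by the 3 arrays per group.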

Additional observations from a re-analysis of the deposited data

How the results depend on the processing

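The 15 largest differences in each direction were chosen with groups that did not overlap, so leaving out an array could not turn their sign. Of 42 named probe sets, 39 kept their direction in all settings run. The exceptions were Foxo1, at −0.28 to 0.14 without 1 array (0.14 without DEX replicate 1), Ddit4, at −0.46 to 0.0265 without 1 array (above 0 without DEX + TE replicate 3), and Foxo3, at −0.0085 with array weights, −0.0133 with arrays centred on their medians, and −0.23 to 0.33 without 1 array (below 0 without DEX replicate 3 and without DEX + TE replicate 1 or 3). The count of calls, 0 with limma, was 4 with a group mean of at least 50 (2 higher, 2 lower), 3 with a variance that follows the signal (1 higher, 2 lower), 1 lower after quantile normalization, 1 higher without DEX replicate 2, and 78 with Rank Product (50 higher, 28 lower). The 4 calls at the lower limit were Bcl2, Tmem200c, BC025920 and Kdm5c, which lie outside the rule for named genes, and BC025920 was also the call after quantile normalization. With 1 array left out the count was 0 to 1. Probe sets whose groups did not overlap numbered 3178, 5833 with no filter on low signal, and 3178 to 5920 with 1 array left out, where fewer arrays make separation easier. Among gene lists, 23 of 42 kept the sign of their median relative to all genes under all 15 settings, the heat shock proteins not among them. The cause of these differences was not tested.

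Replicates of different groups share numbers in the titles. The deviations of same-numbered arrays from their group means correlated at −0.06 to 0.08, and those of arrays with different numbers at −0.09 to 0.11. Whether a number stands for a shared batch was not tested, and the titles do not say. With the replicate number as a block, limma called 0 probe sets, as without it, and 1469 were higher and 387 lower at a nominal p below 0.05. Signals under 50 lie near background and limit what can be read from dim genes.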

Other observations

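In several other groups, genes were higher or lower in value without passing the test. The lists share members, as C1qa and C1qb are in both the complement and the macrophage list, so they are not independent of each other. Of 12 complement and acute-phase genes 10 were higher in the DEX + TE group, with a median log2 fold change of 0.38. C1qa, C1qb and C1qc reached the signal limit only in the DEX + TE group, which fixed their direction. At a nominal limma p below 0.05, 3 of the list were higher (6.24% of all genes). The count of 3 was 1 without DEX + TE replicate 3, DEX replicate 1 or DEX replicate 2, and the median was 0.17 without DEX replicate 1. Serping1, the C1 inhibitor, was at 2469, 2344 and 2454 in the DEX mice and 3325, 3486 and 3574 in the DEX + TE mice, with no overlap (log2 fold change 0.51, limma adjusted p = 0.382). Haptoglobin (Hp), a plasma scavenger of hemoglobin, was at 714, 486 and 399 in the DEX and 884, 1210.5 and 1095 in the DEX + TE mice, with a control mean of 71.5 ± 46.2 (SD, n = 3). Lcn2 (lipocalin 2), far brighter under DEX, went the other way, with a control mean of 35.2 ± 23.4. It was at 15040, 9011 and 10810 in the DEX and 8534, 7300 and 7325 in the DEX + TE mice, without overlap (log2 fold change −0.56, limma adjusted p = 0.809). Among interferon-induced genes 17 were higher and 3 lower, and 1 of the 20 was higher at a nominal p below 0.05, a share below the 6.24% of all genes. That count was 0 without Control replicate 2, DEX + TE replicate 2 or DEX replicate 2, 2 without DEX + TE replicate 1 and 3 without DEX replicate 1. The median was 0.26, and 0.15 without DEX + TE replicate 2 and 0.09 without DEX replicate 2.

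Among 12 endothelial markers 7 were higher and 5 lower, with a median of 0.03 (−0.01 with the arrays centred on their medians). With 1 array left out the median ran from −0.03 (without DEX replicate 3) to 0.09 (without DEX replicate 2). Of these markers 2 reached a nominal p below 0.05 in opposite directions (6.24% of all genes were higher and 2.09% lower). The higher count was 0 without DEX + TE replicate 2, DEX + TE replicate 3 or DEX replicate 3. Pecam1, an adhesion molecule of vessels and leukocytes, was at 800.0, 768 and 726 in the DEX and 543, 594 and 628 in the DEX + TE mice (log2 fold change −0.38, limma adjusted p = 0.354). Cldn5, a tight junction protein of endothelium, was at 931, 1303 and 871 in the DEX and 1383, 1476 and 1644 in the DEX + TE mice, and at 324, 287 and 441 in the control mice (log2 fold change 0.56, limma adjusted p = 0.514). In the list of NF-kB and inflammation, 17 genes were measured. A nominal p below 0.05 was reached by 3 higher genes (6.24% of all genes) and 1 lower gene (2.09% of all genes). The former count was 1 without DEX + TE replicate 3, DEX replicate 1 or DEX replicate 2, and the latter 0 without DEX + TE replicate 3. Tnfaip3, a feedback inhibitor of NF-kB, was at 210.0, 129.7 and 125 in the DEX and 254, 193 and 318 in the DEX + TE mice (log2 fold change 0.73), and the adhesion molecule Vcam1 was at 133, 122 and 184 in the DEX and 102, 113 and 87.8 in the DEX + TE mice (log2 fold change −0.52), though its other probe set gave 0.37.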
